A study of Homo sapiens with 8 samples.

Results

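The genes described here make and use microRNAs, and they were examined for peaks of the RNA-binding protein RBM45 in wild-type (WT) HEK293T cells. The 8 genes are DROSHA, DGCR8, XPO5, DICER1, AGO1, AGO2, TNRC6A and TNRC6B. A peak counted as a member when it overlapped the gene's hg19 interval on the gene's strand. By that rule 322 of 210878 entries of the WT CLIP replicate 1 list, 178 of 65587 entries of the WT CLIP replicate 2 list and 58 of 13758 deposited pairs of peaks from both lists lay in these genes. An entry is a distinct peak on a given strand, and repeated rows were counted once. No member entry crossed a gene's edge.

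The series has 8 libraries in 4 groups of 2 replicates, namely CLIP and size-matched input from METTL3 knockout cells and CLIP and size-matched input from WT cells. HEK293T is an established cell line derived from embryonic kidney. In every group it carried a lentivirus for FLAG-HA-tagged human RBM45, and the cells were irradiated with ultraviolet light (300 mJ/cm2 at 254 nm). The CLIP libraries were pulled down with an HA-tag antibody, so they report the tagged protein, and the input libraries used no antibody. METTL3 is the catalytic subunit of the enzyme that writes most m6A on messenger RNA. The study profiled where RBM45 binds, and on which genes, with and without METTL3. Only the peaks listed for the WT CLIP libraries enter the values given here, and no value of the METTL3 knockout or input libraries was used. No label says that replicates came from separate cultures. Binding of the cell's own RBM45 was not measured.

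MicroRNAs are cut from hairpins in long nuclear transcripts. DROSHA, a ribonuclease, makes the cut together with DGCR8, which recognises the hairpin, and this pair also cuts hairpins in the DGCR8 message itself. XPO5 carries the trimmed hairpin to the cytoplasm, where DICER1 cuts it to a short duplex. AGO1 and AGO2 hold the mature strand and find target messages, and AGO2 can also slice a target. TNRC6A and TNRC6B, scaffold proteins of the GW182 family, join AGO proteins to the enzymes that shorten poly(A) tails and repress the message.

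RBM45 CLIP peaks were unevenly spread over these genes. AGO2 carried the most, 106 entries in replicate 1 and 53 in replicate 2, and DGCR8 was the most densely covered, with 12.3 and 8.53 entries per 10 kb. DICER1 carried 4 entries in replicate 1 and 3 in replicate 2, and none of them overlapped. TNRC6B, the longest gene at 291 kb, had 86 and 43 entries, TNRC6A had 27 and 15, DROSHA had 27 and 21, AGO1 had 24 and 9, and XPO5 had 9 and 7. Replicate 1 listed more entries than replicate 2 in every gene. Its excess was 1.81-fold over the 8 genes, from 1.29-fold in DROSHA and XPO5 to 2.67-fold in AGO1, against 3.22-fold in the whole lists. The members therefore made up 0.153% of the replicate 1 list and 0.271% of the replicate 2 list. A gene's RNA level was not measured here, so more binding and more RNA cannot be told apart, and sequencing depth per library is unknown from the peak lists.

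**Figure D1:**
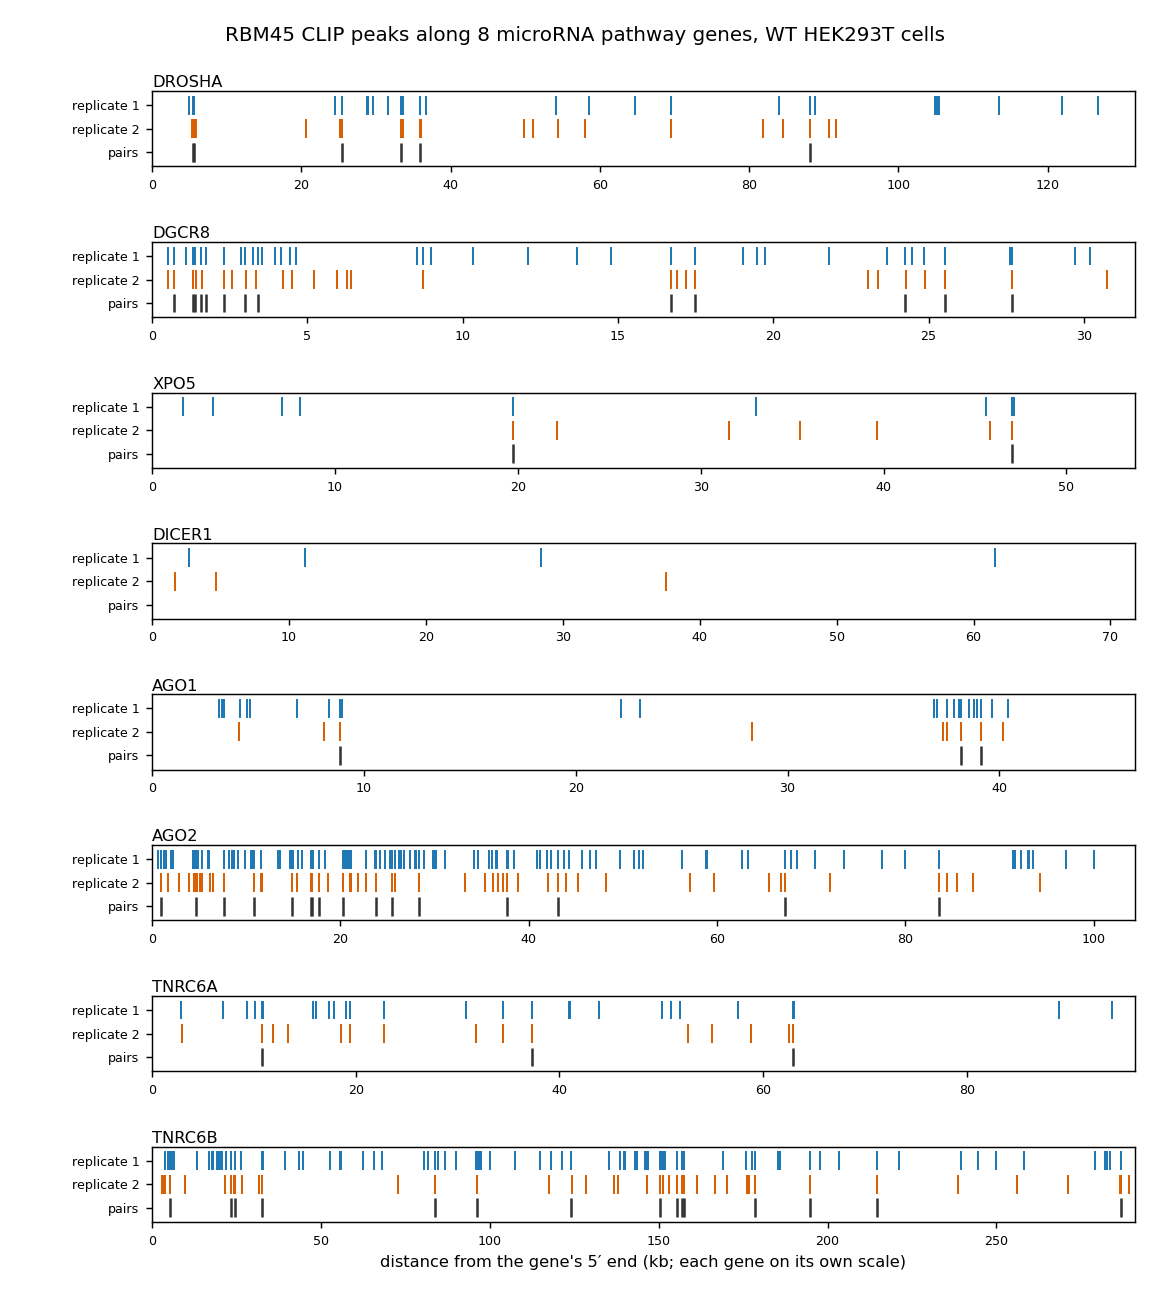
Position of each RBM45 CLIP peak along the 8 genes, in kb from the gene's 5′ end, each gene on its own scale. Blue ticks are replicate 1 entries, orange ticks are replicate 2 entries and dark ticks are the 58 deposited pairs; DICER1 has 4 and 3 entries and no pair, while DGCR8 has 8 of its 13 pairs in the first 20% of the gene.

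To set the genes side by side, the share of each list that fell in a gene was divided by the gene's length. DGCR8 held 0.584% of the replicate 1 list and 1.30% of the replicate 2 list per Mb, and AGO2 held 0.482% and 0.774%. DGCR8 ranked above AGO2 in each list, but their ranges over the lists overlapped. Every gene had the higher share in replicate 2, so each range also holds a difference between the lists. Whether DGCR8 and AGO2 differ was not tested. AGO1 followed in both lists with 0.245% and 0.296% per Mb, below both values of AGO2. TNRC6A (0.133% and 0.237%), TNRC6B (0.140% and 0.225%), DROSHA (0.0972% and 0.243%) and XPO5 (0.0794% and 0.199%) followed with ranges that overlapped from each to the next. DICER1 was lowest in both lists, with 0.0264% and 0.0637% per Mb, below both values of XPO5. In 100-kb stretches of a given strand that held at least 1 entry anywhere in the genome, the median was 0.6 entries per 10 kb in replicate 1 and 0.3 in replicate 2. The highest 10% of such stretches began at 2.5 entries per 10 kb in replicate 1 and 1.2 in replicate 2. DGCR8, AGO2 (10.2 and 5.08), AGO1 (5.17 and 1.94), TNRC6A (2.80 and 1.55) and TNRC6B (2.96 and 1.48) lay above these levels in both lists, and DROSHA and XPO5 (1.67 and 1.30) in replicate 2 alone. DICER1, at 0.557 and 0.418 entries per 10 kb, lay below that median in replicate 1 and above it in replicate 2. The 100-kb stretches were not bounded by genes, and several of the genes are shorter, such as DGCR8 at 31.6 kb. These levels therefore do not show how the genes rank among other genes.

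**Figure D2:**
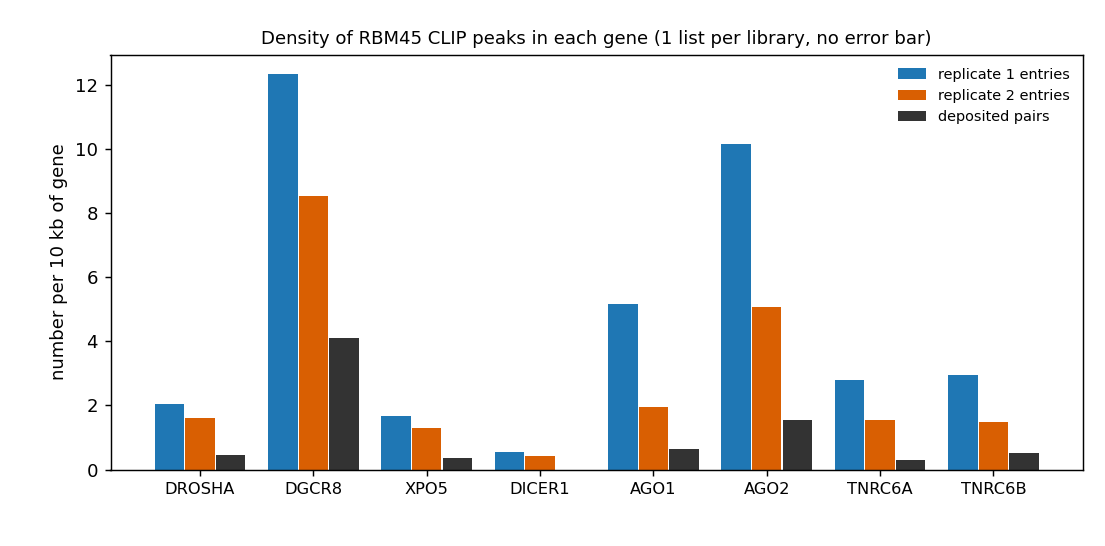
Number of RBM45 CLIP peaks per 10 kb of gene for replicate 1 (blue), replicate 2 (orange) and the deposited pairs (dark). There is 1 list per library, so the bars carry no error; DGCR8 reaches 12.3 and 8.53 entries, and DICER1 0.557 and 0.418 with no pair.

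A larger share of the entries in these genes than of the whole lists overlapped between the replicates. Of the 178 member entries of replicate 2, 79 shared at least 1 base with a replicate 1 entry, which is 44.4% (95% exact binomial interval 37.0 to 52.0), against 28.8% of the whole replicate 2 list. Of the 322 member entries of replicate 1, 80 overlapped replicate 2, which is 24.8% (20.2 to 29.9), against 8.88% of the whole replicate 1 list. DGCR8 had the highest shares, 63.0% of its replicate 2 entries (42.4 to 80.6) and 48.7% of its replicate 1 entries (32.4 to 65.2). AGO2 followed in replicate 2 with 49.1% (35.1 to 63.2). Without DGCR8 and AGO2 the share was 36.7% (27.2 to 47.1), an interval that holds 28.8%. The intervals cover counting error only and treat entries as independent, although 58.4% of the replicate 2 members had another entry of that list within 1 kb in the same gene. Replicate 1 entries covered 8.30% of the length of DGCR8 and 5.45% of AGO2, against 1.99% over all 8 genes. The part of this density in the overlap was not tested, and no test was made of the difference in shares.

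**Figure D3:**
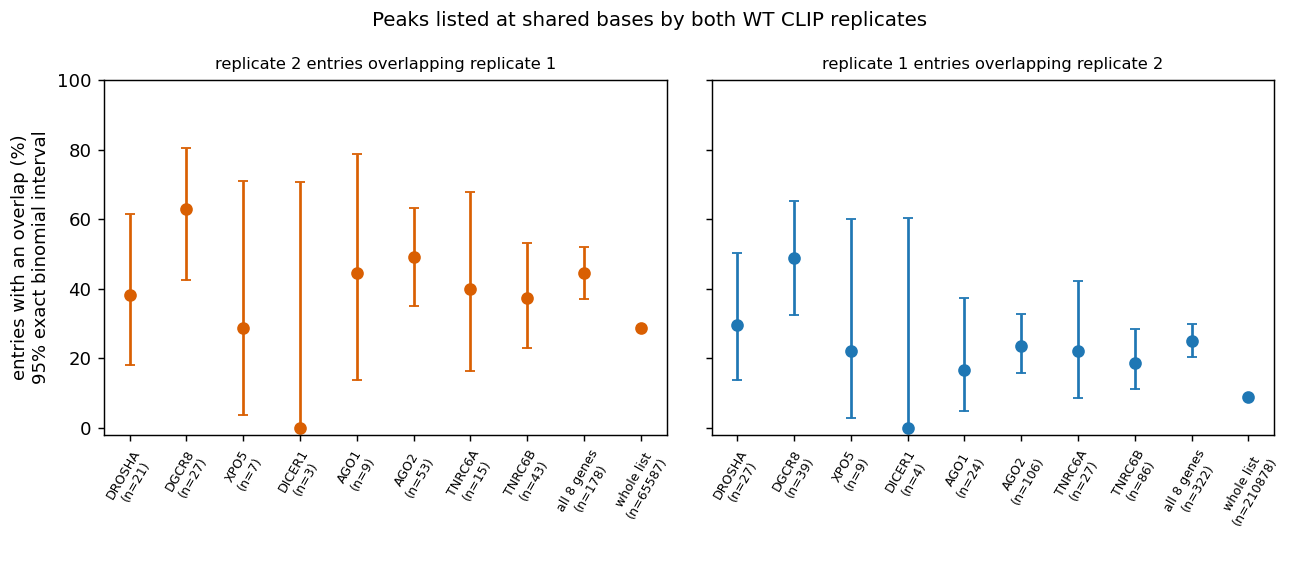
Share of entries that share at least 1 base with the other replicate, for each gene, for all 8 genes and for the whole list, with 95% exact binomial intervals (counting error only; n entries in parentheses). Over all 8 genes it is 44.4% of replicate 2 and 24.8% of replicate 1 entries, against 28.8% and 8.88% of the whole lists; most single-gene intervals are wide.

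Member peaks also had higher median enrichment and width than the lists. Each peak's fold is the authors' enrichment relative to the background of the peak caller, and its −log10 p is theirs too, without adjustment. The median fold was 3.68 in the replicate 1 members, against 3.12 in that list, and 3.99 in the replicate 2 members, against 3.81 in that list. Above 5-fold lay 58 of 322 member entries in replicate 1 (18.0%), against 9.16% of the list, and 36 of 178 in replicate 2 (20.2%), against 18.0% of the list. By −log10 p, 245 of the 322 (76.1%) and 121 of the 178 (68.0%) fell in the stronger 50% of their list. The median width was 38 bases in replicate 1 members, against 30 bases in the list, and 32.5 bases in replicate 2 members, against 31 bases in the list. Strength, width and overlap were thus all higher in the pooled members than in the lists. In replicate 2, however, the median fold, the share above 5-fold and the median width were close to those of the list. The median fold of TNRC6A lay below the list's in both replicates (2.91 and 3.79). Those of AGO1 (3.67) and DICER1 (3.59) lay below it in replicate 2, and the other genes' medians were above the list's in both. Gene by gene the order was mixed. In replicate 2, 85.7% of XPO5 entries lay in the stronger 50%, and 28.6% overlapped (3.67 to 71.0). The shares were 33.3% and 44.4% (13.7 to 78.8) in AGO1 and 85.2% and 63.0% (42.4 to 80.6) in DGCR8. These intervals are wide, and the part of strength and width in the overlap was not tested. Within the stronger 50% of each list, 49 of 121 members of replicate 2 (40.5%, 31.7 to 49.8) overlapped, against 33.1% of that list, a value within the interval.

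DGCR8 and DROSHA encode the nuclear processing step. In DGCR8, on the plus strand of chromosome 22 from 20067755 to 20099400, peaks gathered at the 5′ end. The first 20% of the gene held 17 of its 39 replicate 1 entries (43.6%) and 14 of its 27 replicate 2 entries (51.9%). The densest 5 kb, picked from these same entries, ran from 0.515 kb to 5.515 kb of the gene. It held 17 (43.6%) and 12 (44.4%) of them in 15.8% of the length, with 8 of the 13 pairs. The strongest DGCR8 peak of either list lay there, 0.515 kb from the gene's start. In replicate 1 it ran from 20068270 to 20068401 with a fold of 14.7 and a −log10 p of 43.5, rank 179 of the list, and in replicate 2 from 20068272 to 20068319 with a fold of 7.71 and a −log10 p of 19.4, rank 560. These were the highest −log10 p values among all member entries of each list. The replicate 2 peak lay wholly inside the replicate 1 peak, but since it covered 36.4% of that wider peak it is not among the deposited pairs.

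The most 5′ deposited pair of DGCR8, 20068461 to 20068518 in replicate 1 and 20068461 to 20068514 in replicate 2, had folds of 6.15 in replicate 1 and 4.28 in replicate 2. For the other pairs the position is that of the replicate 1 peak, and its fold stands before that of the replicate 2 peak. The pair with the highest lower fold of this gene lay at 20070084 to 20070115, with folds of 6.70 and 6.76, and its ends differed by 1 base between the lists. The widest DGCR8 peaks of both lists lay in the same 5 kb, 172 bases at 20071895 to 20072066 in replicate 1 and 252 bases at 20069357 to 20069608 in replicate 2. DGCR8 peaks were wide in general, with a median width of 58 bases in replicate 1, against 43 in replicate 2. The remaining pairs lay 16.7 to 27.7 kb from the start, and the most 3′ of them, at 20095438 to 20095512, had folds of 4.91 and 5.53. A replicate 2 peak of 7.34-fold at 20090797 to 20090844 had no replicate 1 counterpart, and the nearest replicate 1 peak was 561 bases away. The exons, introns and hairpins of these genes were not placed in hg19 here, so no peak was assigned to them.

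DROSHA, on the minus strand of chromosome 5 from 31400602 to 31532282, was more sparsely covered over its 132 kb, with 2.05 entries per 10 kb in replicate 1 and 1.59 in replicate 2. Its pairs numbered 6, and 5 of them lay in the first 35.9 kb. The strongest DROSHA peak of either list was the same site, 5.56 kb from the 5′ end, at 31526658 to 31526727 with a fold of 5.83 in replicate 1 and at 31526660 to 31526720 with a fold of 6.80 in replicate 2. A neighbouring pair began 70 bases away, at 31526797 to 31526861, with folds of 4.24 and 3.87. The pair with the highest lower fold lay at 31498924 to 31498971, 33.3 kb into the gene, with folds of 6.77 and 6.10. A pair at 31496353 to 31496382 had the same ends in both lists, with folds of 4.21 and 4.04. At 31506779 to 31506812 the folds were 4.08 and 6.68. The most 3′ pair, 31444011 to 31444068, had folds of 4.37 and 2.49 and lay 88.2 kb from the start. The widest DROSHA peak of replicate 1, 94 bases at 31498534 to 31498627 with 2.62-fold, covered a whole 30-base replicate 2 peak of 4.80-fold but was not among the pairs. The last 20% of DROSHA held 4 replicate 1 entries and no replicate 2 entry.

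XPO5, the export receptor, lies on the minus strand of chromosome 6 from 43490068 to 43543812 and had 2 pairs. The more 5′ pair, 43524072 to 43524101, had the same ends in both lists, folds of 5.41 and 6.47, and was the strongest XPO5 peak of replicate 2, with a −log10 p of 11.5. The other, at 43496747 to 43496783, was the strongest of replicate 1, with a fold of 7.65 and a −log10 p of 14.9, while its replicate 2 partner had 3.42-fold and a −log10 p of 4.79. Its folds differed by more than a factor of 2. The widest XPO5 peak, 104 bases at 43496555 to 43496658 with 3.06-fold in replicate 1, lay 89 bases from this replicate 1 peak and had no partner. The first 20% of XPO5 held 4 of the 9 replicate 1 entries and none of the 7 replicate 2 entries.

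DICER1, which cuts the exported hairpin, had no site shared by the lists. It lies on the minus strand of chromosome 14 from 95552565 to 95624347. Its replicate 1 entries lay at 95562727 to 95562756 (5.24-fold), 95595888 to 95595921 (3.79-fold), 95613113 to 95613144 (2.74-fold) and 95621625 to 95621667 (2.78-fold). Its replicate 2 entries lay at 95586805 to 95586834 (3.59-fold), 95619671 to 95619701 (5.32-fold) and 95622601 to 95622644 (3.07-fold). The closest entries of the 2 lists were 934 bases apart, near the 5′ end, and the strongest replicate 1 entry was 24049 bases from any replicate 2 entry. With 0 of 3 replicate 2 entries matched, the 95% exact interval of the share runs up to 70.8%, so an overlap like that of the other genes is within the interval.

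Among the silencing genes, AGO2 held 16 and TNRC6B 15 of the 58 pairs. AGO2 lies on the minus strand of chromosome 8 from 141541264 to 141645646. Its peaks ran through the whole gene but thinned toward the 3′ end. The first 2 of 5 equal parts held 73 of 106 replicate 1 entries (68.9%), 37 of 53 replicate 2 entries (69.8%) and 13 of 16 pairs. The longest stretch of AGO2 with no peak in either list was 4.39 kb, at the 3′ end, or 4.21% of the gene. The pair with the highest lower fold lay 67.3 kb from the start, at 141578366 to 141578395, with folds of 6.76 and 9.21, and it was the strongest AGO2 peak of replicate 2. The strongest AGO2 peak of replicate 1, 141617320 to 141617349, had a fold of 13.7 and a −log10 p of 28.7. Its replicate 2 partner, 1 base longer at each end, had 3.16-fold and a −log10 p of 8.10. The ratio between these folds was the largest of any of the 58 pairs. A pair of neighbouring sites at 141628641 to 141628678 and 141628721 to 141628754 had replicate 2 folds of 6.90 and 6.38 and replicate 1 folds of 4.16 and 3.43.

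Overlap in AGO2 went beyond the deposited pairs. Counting any shared base gave 26 overlaps, of which 10 are not among the pairs, because the shared bases made up less than 50% of the replicate 1 peak. The widest replicate 1 peak of AGO2, 176 bases at 141633901 to 141634076, held 2 separate 30-base replicate 2 peaks. Over the 8 genes 23 of 81 overlaps (28.4%) were left out in this way, 6 of them in DGCR8, near the 27.7% left out over the whole lists. Strong replicate 1 peaks of AGO2 without a partner also occurred, such as 141599034 to 141599118 with 11.2-fold, 1295 bases from the nearest replicate 2 peak.

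AGO1, on the plus strand of chromosome 1 from 36348810 to 36395211, had its peaks in 2 groups, near either end. The first 10 kb held 10 of 24 replicate 1 entries and 3 of 9 replicate 2 entries. The densest 5 kb, picked from these same entries, ran from 36.9 to 41.9 kb and held 12 and 5. The rest of the gene held 2 and 1. The pair in the 5′ group, 36357662 to 36357694, had folds of 5.83 and 6.59 and was the strongest AGO1 peak of replicate 2. In the 3′ group the pair at 36386982 to 36387109 had folds of 6.75 and 5.24, and the pair at 36387937 to 36387994 had 3.50 and 2.06. The strongest AGO1 peak of replicate 1, 36386679 to 36386758, with a fold of 6.36 and a −log10 p of 15.6, stood in the same group but lay 221 bases from the nearest replicate 2 peak. The AGO1 peak with the highest fold in replicate 1, 7.08 at 36357799 to 36357875, lay in the 5′ group and had no partner either. In replicate 2 only 3 of the 9 AGO1 entries were in the stronger 50% of the list, against 21 of 24 in replicate 1.

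The GW182 scaffold genes had median folds of 2.91 and 3.79 in TNRC6A and 3.40 and 3.89 in TNRC6B, against 3.68 and 3.99 over the 8 genes. XPO5, DICER1 and AGO1 also lay below the 8 genes' median in both lists. Against the medians of the whole lists, 3.12 and 3.81, TNRC6A was lower in both and TNRC6B higher in both. TNRC6A, on the plus strand of chromosome 16 from 24741049 to 24837549, had 3 pairs, at 24751816 to 24751854 (folds of 2.74 and 3.22), 24778311 to 24778340 (4.81 and 3.79) and 24803957 to 24803986 (2.997 and 5.66). The strongest TNRC6A peak of replicate 2, 24772885 to 24772920 with 7.27-fold, lay 995 bases from the nearest replicate 1 peak. The strongest of replicate 1, 24804118 to 24804150 with 5.37-fold, lay 126 bases from the replicate 2 partner of the last pair. No peak of either list was found from 63.1 to 89.1 kb. The widest TNRC6A peak, 155 bases at 24743913 to 24744067 with 2.77-fold in replicate 1, covered a 38-base replicate 2 peak of 2.17-fold that is not among the pairs.

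TNRC6B, on the plus strand of chromosome 22 from 40440821 to 40731812, had pairs spread along its length, from 5.22 to 287 kb from its start. None of these exceeded 5-fold in both lists, and the highest lower fold was 4.17, at 40596303 to 40596334, where replicate 1 had 6.32. The next pairs along the gene were 40597734 to 40597765 (folds of 3.60 and 4.08) and 40598273 to 40598304 (folds of 3.07 and 4.81). The folds of TNRC6B pairs were higher in replicate 2 in 11 of 15 (73.3%), against 60.3% of the 58 member pairs and 53.3% of all deposited pairs. The strongest TNRC6B peak of replicate 1, 40719943 to 40719979, with a −log10 p of 16.8, lay 279 kb from the start and 7.41 kb from the nearest replicate 2 peak. The strongest of replicate 2, 40592189 to 40592218 with 4.83-fold, lay within a 116-base replicate 1 peak of 5.89-fold. At the 5′ pair, 40446042 to 40446071, the folds were 2.77 and 3.32, and at the most 3′ pair, 40727676 to 40727705, they were 1.82 and 2.17.

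Over all 58 pairs, the folds of the replicates lay within a factor of 2 in 55 pairs (94.8%), against 90.5% of all 13758 deposited pairs. The exceptions were the AGO2 pair at 141617320, the XPO5 pair at 43496747 and the DGCR8 pair at 20070732, where the folds were 2.34 and 5.91. Both peaks exceeded 5-fold in 8 of 58 pairs (13.8%), near the 13.9% of all pairs. Those 8 were 2 each in DROSHA, AGO1 and AGO2 and 1 each in DGCR8 and XPO5. Midpoints of a pair were a median of 4.5 bases apart, against 4 bases in all pairs, and within 10 bases in 41 pairs (70.7%), against 74.5% of all pairs. In DGCR8 the median was 11.5 bases, and 4 of its 13 pairs lay within 10 bases. The ends were the same in both lists in 5 pairs (8.62%), 3 of them in TNRC6B, against 6.44% of all pairs.

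**Figure D4:**
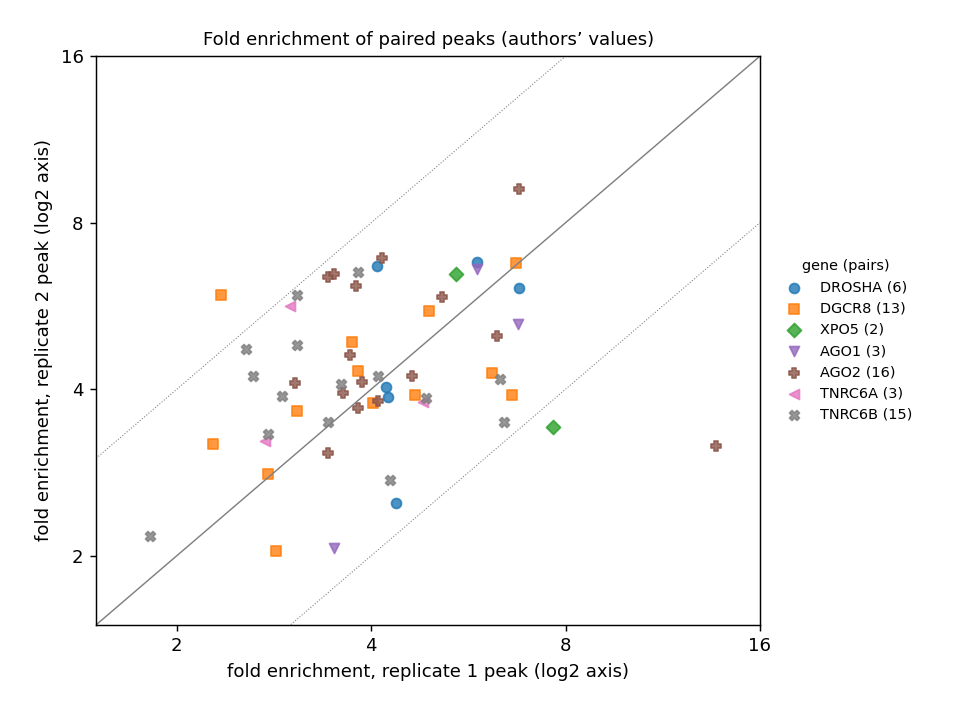
Fold enrichment of the replicate 1 peak and the replicate 2 peak in each of the 58 pairs, on log2 axes, with 1 symbol per gene; the solid line marks equal folds and the dotted lines a factor of 2. In 55 pairs the folds lie within the dotted lines, and the AGO2 point farthest right has 13.7 in replicate 1 and 3.16 in replicate 2.

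Peaks were not even along the genes. Pooled over the 8 genes, the first 20% of each gene's length held 36.0% of replicate 1 entries, 36.5% of replicate 2 entries and 44.8% of pairs. The last 20% held 13.7%, 11.8% and 12.1%. These shares were not computed for other genes, so whether the pattern is particular to the 8 genes was not tested. AGO2 and TNRC6B contributed 39 and 27 of the 116 replicate 1 entries in the first 20%. AGO1 and XPO5 differed from the pooled shares. AGO1 had 41.7% of replicate 1 and 55.6% of replicate 2 entries in its last 20%. XPO5 had 33.3% of replicate 1 and 28.6% of replicate 2 entries there, and 44.4% and 0% in its first 20%. In TNRC6B the middle 20% held 16 of 43 replicate 2 entries, the highest count of its 5 parts in that list. Of the unmatched entries, 64 of 99 in replicate 2 (64.6%) had a peak of the other list within 1 kb, against 56.3% of the unmatched entries of that list. In replicate 1 they were 124 of 242 (51.2%), against 23.7% of that list's unmatched entries. Within 100 bases the direction differed between the lists. The replicate 2 share, 9 of 99 (9.09%), lay below the 12.02% of that list's unmatched entries. The replicate 1 share, 21 of 242 (8.68%), lay above the 3.70% of that list's unmatched entries. The part of peak density in these shares was not tested.

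The strand of an entry limits these counts. On the opposite strand of the 8 intervals the lists gave 1 entry in replicate 1, in DICER1, and 0 in replicate 2, against 322 and 178 on the genes' strand. Peak numbers within each gene ran on without a gap, 0 absent in either list, while 25.6% and 15.2% of numbers are absent from the whole lists. Every peak of a gene was repeated in the same number of rows in 6 genes, 2 in DROSHA, DGCR8 and AGO2 and 1 in XPO5, AGO1 and TNRC6A. In TNRC6B the number changed once, to 3 rows for all 63 entries from 135 kb on, against 1 row for the 66 before, and in DICER1 it was 4 rows for the 3 entries from 28.4 kb on, against 1 before. The number of repeats thus changed by stretch of gene and not from peak to peak. The sources used here do not say whether strand was taken from annotated transcripts, and this was not tested, so the counts do not show that antisense peaks were absent. In stretches of the same length next to each gene on the same strand, replicate 1 gave 60 entries upstream and 83 downstream in all, and replicate 2 gave 15 and 25. DROSHA had no entry on either side, and TNRC6B had 39 and 14 downstream. Other genes in these stretches were not identified.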

How the data were processed

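RBM45 iCLIP was made from WT HEK293T cells in 2 replicates, and only these libraries' peak lists and the deposited list of pairs were used. Per the submitters' processing notes, deepTools 3.2.1, HOMER 4.11.1, bedtools 2.25.0, MACS2 2.1.1.20160309 and Novoalign 3.09.00 were used with hg19, without roles. The deposited peak names show that MACS2 called each library separately, and p005 in them was read as a p threshold of 0.005. The control used for calling is not stated. The authors deposited for each peak a fold enrichment (a ratio to the caller's background), an unadjusted −log10 p, and a score that equals 10 times that −log10 p cut to a whole number.

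Rows repeated for a peak and strand were collapsed (467329 and 148958 rows to 210878 and 65587 entries). Gene intervals were hg19, overlap was same-strand and at least 1 base, and positions are 1-based. The pair list is filed with a WT input sample, but its peak names are those of the 2 WT CLIP lists, and its 13758 pairs were exactly those sharing at least 50% of the replicate 1 peak. No tests were run, since each library gives 1 list. Intervals are exact Clopper-Pearson at 95%. Python 3.11.15, pandas 2.3.3, numpy 2.4.6 and scipy 1.17.1 were used, and overlap code was tested on simulated data against bedtools 2.31.1. A count table was not used, because none of its 8 column names matches a sample label, so the planned comparisons of CLIP with input and of METTL3 knockout with WT were not made. Sequences and exon annotation were not used, since the genome available was of another build. Further pathway genes listed for description were not analysed for that reason.

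The 8 genes and the quantities were chosen with earlier results of these data known. Peaks were named by a rule, per gene the strongest entry of each list, the widest entry, the pair with the highest lower fold, the most 5′ and most 3′ pairs, and all pairs in genes with 5 or fewer. Not every peak under this rule is described, for example the most 5′ and most 3′ pairs of AGO2 and the widest TNRC6B entries. Any peak named outside the rule was chosen after its values were seen.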

Additional observations from a re-analysis of the deposited data

How the results depend on the processing

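The share of replicate 2 member entries that overlapped replicate 1, 44.4%, moved to 29.2% (19.6% in the whole list) when the shared bases had to make up 50% or more of each peak, to 32.0% (20.9%) with at least 50% of the replicate 1 peak and to 30.3% (18.6%) with replicate 1 reduced to the length of replicate 2. The members stayed above the whole list in each, and the values are lower by construction, since fewer overlaps or fewer peaks qualify. The share was 36.7% without DGCR8 and AGO2, and 41.1% and 42.4% without DGCR8 or AGO2 alone, against 28.8%. These alternatives were chosen after seeing the data. Pairs numbered 8 when both folds had to exceed 5, since fewer qualify. The members held 0.212% of entries on average, 0.301% in the stronger 50% of each list, where the cause was not tested, and 0.153% to 0.271% leaving out each replicate in turn. Of 31 alternatives in all, 6 moved a value by more than the spread used for it, and none reversed one. The alternatives that left out 1 of the 2 replicates were judged by the spread of those same 2 values. A mean of 2 values cannot move beyond that spread in this way, so these alternatives say nothing about stability. No paired analysis was possible because no test was run and the count columns carry no sample labels. For the same reason the planned count tests and their alternatives were not run. Peak lists give no read depth, so peaks not listed in a replicate may lie below its detection limit, and few entries per gene leave wide intervals.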
